A study of Mus musculus with 12 samples.

Results

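The 10 genes described here surround Mir181a-2 and Mir181b-2, the pair of miRNA genes missing from the Mir181a2b2 knockout, on chromosome 2 of the mouse genome (GRCm38). They were chosen by position: Nr6a1, in whose intron the precursors lie, its antisense transcript Nr6a1os, the nearby transcript 5730507A11Rik, and the neighbours Nr5a1, Psmb7 and Nek6 on one side and Olfml2a, Rpl35, Arpc5l and Golga1 on the other. They are 10 of the 49315 genes in the count table and 10 of the 27 counted genes between Nek6 and Golga1, a stretch of 553.9 kb. Of the 17 other genes in that stretch, only 2, Wdr38 and Gm35808, reached 10 counts in any library, and these names were taken after the values were seen.

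White adipose tissue of 12 mice gave 1 RNA library each, and the 4 groups held 3 mice apiece. Flox mice (miR-181a2b2flox/flox) carry the floxed locus, for which the labels list no Cre, and KO mice (miR-181a2b2-/-) lack it in all tissues. Every mouse ate a diet with 60% fat for 12 weeks and was injected intraperitoneally each week with vehicle or with methotrexate (MTX), a folate antagonist, at 1 mg/kg. Per the methods, the fat was the epididymal pad (eWAT) and the animals were age-matched male littermates, whose ages are not given in the sources used here. The comparisons ask whether loss of the locus, or MTX, went with a change in the genes next to it.

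A miRNA is cut from a hairpin in a longer transcript and pairs through its seed, bases 2 to 8, with sites in mRNAs, which usually lowers their level. Where the hairpin lies inside another gene, its removal can also take away sequence that the host or its neighbours use. Nr6a1 (GCNF) is an orphan nuclear receptor that silences pluripotency genes in the embryo and is abundant in germ cells of the testis, and Nr5a1 (SF-1) is the nuclear receptor that drives steroid hormone synthesis in the gonads and adrenal gland. Olfml2a encodes a secreted protein, and the other protein-coding neighbours serve general functions of the cell.

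The deleted precursors are read from the plus strand, opposite to Nr6a1. Mir181a-2 lies at chr2:38852735-38852810 and Mir181b-2 at chr2:38853830-38853918, and both sit in an Nr6a1 intron of 87483 bases (38785112 to 38872594). The hairpins are shown because they are the sequence that the knockout lacks. They are given here from RefSeq (GRCm38.p6), 5′ to 3′, with the 5p miRNA in capitals.
Mir181a-2: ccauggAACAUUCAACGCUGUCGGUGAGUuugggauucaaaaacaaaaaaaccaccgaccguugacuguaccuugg
Mir181b-2: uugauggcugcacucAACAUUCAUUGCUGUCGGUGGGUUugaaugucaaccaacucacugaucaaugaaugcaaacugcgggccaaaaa
The mature 5p miRNAs of the family are shown with the seed in capitals, since miR-181a-5p and miR-181b-5p are also made from loci that the knockout keeps.
miR-181a-5p: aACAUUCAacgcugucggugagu
miR-181b-5p: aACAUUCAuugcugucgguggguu
miR-181c-5p: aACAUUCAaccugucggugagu
miR-181d-5p: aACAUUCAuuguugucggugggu
All 4 share 1 seed, and miR-181a-5p and miR-181b-5p are identical at 20 of the 23 positions compared.

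The letters TGAATGT, the match to this seed on the mRNA, were searched in the longest annotated 3′ UTR of each protein-coding gene (GENCODE M21). They occurred in 2 of the 8 protein-coding neighbours, Nr6a1 and Golga1, against 16.4% of 20984 genes. The matches are shown with 11 bases on either side in the direction of the mRNA, with the match in capitals and with the A opposite base 1 of the miRNA where there is one.
Nr6a1, chr2:38727630-38727658, minus strand: cacgacagagtTGAATGTAtggccttcaa
Nr6a1, chr2:38725812-38725840, minus strand: acctgttgtgtTGAATGTcaaagctctga
Golga1, chr2:39017750-39017778, minus strand: tgccttcttaaTGAATGTActcgtcttgg
Long UTRs hold more matches by length alone. Among genes with a 3′ UTR of 0.8 to 1.25 times the length, 41.9% held the letters for Nr6a1 (4453 bases) and 25.4% for Golga1 (2254 bases). The 3′ UTRs of Nek6 (9216 bases), Olfml2a, Nr5a1, Arpc5l, Psmb7 and Rpl35 held none, which says only that these letters are not in the annotated UTR.

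Counts of the precursors could not check the genotype. Mir181a-2 had 2 counts in flox MTX replicate 4 and 0 counts in the other 11 libraries, and Mir181b-2 had 0 counts in all 12. A count of 0 allows up to 3 counts (0.118 to 0.187 CPM, the counts scaled to library size with TMM factors), for counting error only, and libraries of long RNA hold few reads of hairpins. Gm44144 (38852978 to 38854937, minus strand), whose exon covers Mir181b-2 and begins after the end of Mir181a-2, had between 0 and 4 counts per library, and at least 1 in 5 of the 6 KO libraries, so the extent of the deletion could not be read from it either. That gene was named after its values were seen.

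Depth ranged from 19495310 to 23976469 counts per library. The tissue label was borne out by all 10 adipocyte markers, which were above 3 counts in every library and summed to between 9684 and 47907 CPM. The 3 flox vehicle libraries stood apart. Their 20 epididymis markers summed to 5311, 13884 and 1697 CPM in replicates 1, 3 and 4, against 603 CPM in flox MTX replicate 1 and 11.1 to 56.2 CPM in the other 8 libraries. Crisp1, an epididymis gene named after its values were seen, stood at 3747, 9191 and 1163 CPM in these replicates. Of the 20 markers 13, 17 and 13 were above 3 counts there, against 3 to 16 elsewhere, so not the whole list was high. The 16 testis germ cell markers summed to 556, 454 and 240 CPM in the same replicates and to between 14.4 and 48.7 CPM elsewhere. The 9 steroidogenic cell markers summed to 62.9, 150 and 229 CPM, against 8.3 to 20.2 CPM elsewhere. Macrophage markers went the other way, with 594 to 1176 CPM in the flox vehicle, 4539 to 8267 in the KO vehicle, 886 to 4953 in the flox MTX and 5856 to 9447 in the KO MTX libraries. Endothelial markers summed to 419 to 611, 896 to 1342, 409 to 884 and 590 to 1065 CPM in the same order. Mesothelial markers summed to 86.4 to 166, 137 to 201, 222 to 455 and 121 to 252 CPM in that order. T and B cell markers (14.6 to 292 CPM) varied widely within groups. With MTX against vehicle in flox mice, 5 of 6 mesothelial and 6 of 9 T and B cell markers were called higher and 0 lower. Of all 18702 genes, 1512 were called higher there. The part of these cell types in the results below was not tested.

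Nr6a1, the host gene (38723370 to 38927688, minus strand), had its highest values in flox vehicle mice. In flox vehicle mice it stood at 5.77, 10.3 and 6.41 CPM (replicates 1, 3 and 4). In KO vehicle mice it stood at 3.98, 4.06 and 3.51 CPM (replicates 1, 2 and 3). In flox MTX mice it stood at 3.16, 4.81 and 3.93 CPM (replicates 1, 2 and 4), and in KO MTX mice at 2.82, 3.20 and 3.19 CPM (replicates 2, 3 and 4). The flox vehicle libraries lay above all 9 others, and the remaining groups were close to each other. A call needed both an adjusted p under 0.1 and a change of 1.5-fold or more. Under vehicle, Nr6a1 fell by 0.96 ± 0.27 (SE) on the log2 scale in KO mice (0.515-fold, edgeR's quasi-likelihood test, adjusted p = 0.0203). The exact permutation p was 0.1, the smallest that 3 mice against 3 allow. Under MTX the difference was -0.37 ± 0.27 and did not pass (edgeR adjusted p = 0.413), and the groups overlapped. Averaged over vehicle and MTX, Nr6a1 fell by 0.66 ± 0.19 in KO mice (edgeR adjusted p = 0.0214, exact permutation p = 0.015 over 400 arrangements). Without flox vehicle replicate 3 or flox MTX replicate 2 the average was -0.52 and -0.58, below the fold limit (edgeR adjusted p = 0.0408 and 0.0360).

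In flox mice Nr6a1 was lower with MTX than with vehicle, by 0.91 ± 0.27 on the log2 scale (edgeR adjusted p = 0.0359). In KO mice the 2 groups did not overlap either, but the difference was -0.33 ± 0.27 (edgeR adjusted p = 0.815). The effects in the 2 genotypes differed by 0.59 ± 0.38, which did not pass as an interaction (edgeR adjusted p = 0.484). The MTX call in flox mice was lost without flox vehicle replicate 3 (-0.62, edgeR adjusted p = 0.160), in a fit of the flox libraries alone (-0.93, edgeR adjusted p = 0.171) and with the replicate number as a block (-0.87, edgeR adjusted p = 0.109). Without the same library the KO difference under vehicle was -0.66 (edgeR adjusted p = 0.0827). It ranged from -1.11 to -0.66 over the 12 fits that left out a library, and each of them called it. In bulk tissue, fewer cells of a type that expresses a gene and less of its RNA per cell cannot be told apart.

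Over the 12 libraries, the level of Nr6a1 ran with several kinds of transcript that were high in flox vehicle mice. The 3 genes whose log2 CPM was most like its own, of 18701, were Pkdrej (Pearson r = 0.983), Ccdc38 (0.971) and Rnf32 (0.968). Pkdrej, which encodes a sperm membrane protein, had 0.564, 2.40 and 0.922 CPM in the flox vehicle libraries (replicates 1, 3 and 4) and stayed at or below 0.272 CPM in the other libraries. With the summed steroidogenic markers Nr6a1 had r = 0.868 (Spearman's rho 0.678), with the epididymis markers 0.800 (0.671), with the testis germ cell markers 0.789 (0.469) and with the macrophage markers -0.777 (-0.650). These values describe 12 libraries of 4 groups, of which the flox vehicle libraries stood apart in each measure except the macrophage markers. There flox MTX replicate 4 (886 CPM) lay among them (594 to 1176 CPM). Within that group the orders differed, since Nr6a1 was highest in replicate 3, the testis germ cell markers in replicate 1 and the steroidogenic markers in replicate 4. Without the 3 flox vehicle libraries, which leaves the comparison under MTX, the KO difference of Nr6a1 was -0.38 (edgeR adjusted p = 0.297). All 3 flox vehicle libraries hold transcripts of epididymis and testis, so under vehicle these and the genotype cannot be told apart. MTX in flox mice is compared with the same 3 libraries, so there these transcripts and MTX cannot be told apart either. Of the steroidogenic genes named below, Cyp17a1 was high in all 3 (51.1, 130 and 36.8 CPM in replicates 1, 3 and 4). Cyp11a1 and Hsd3b1 were high in replicate 4 alone (27.7 and 22.3 CPM), and Star in none of them.

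**Figure D1:**
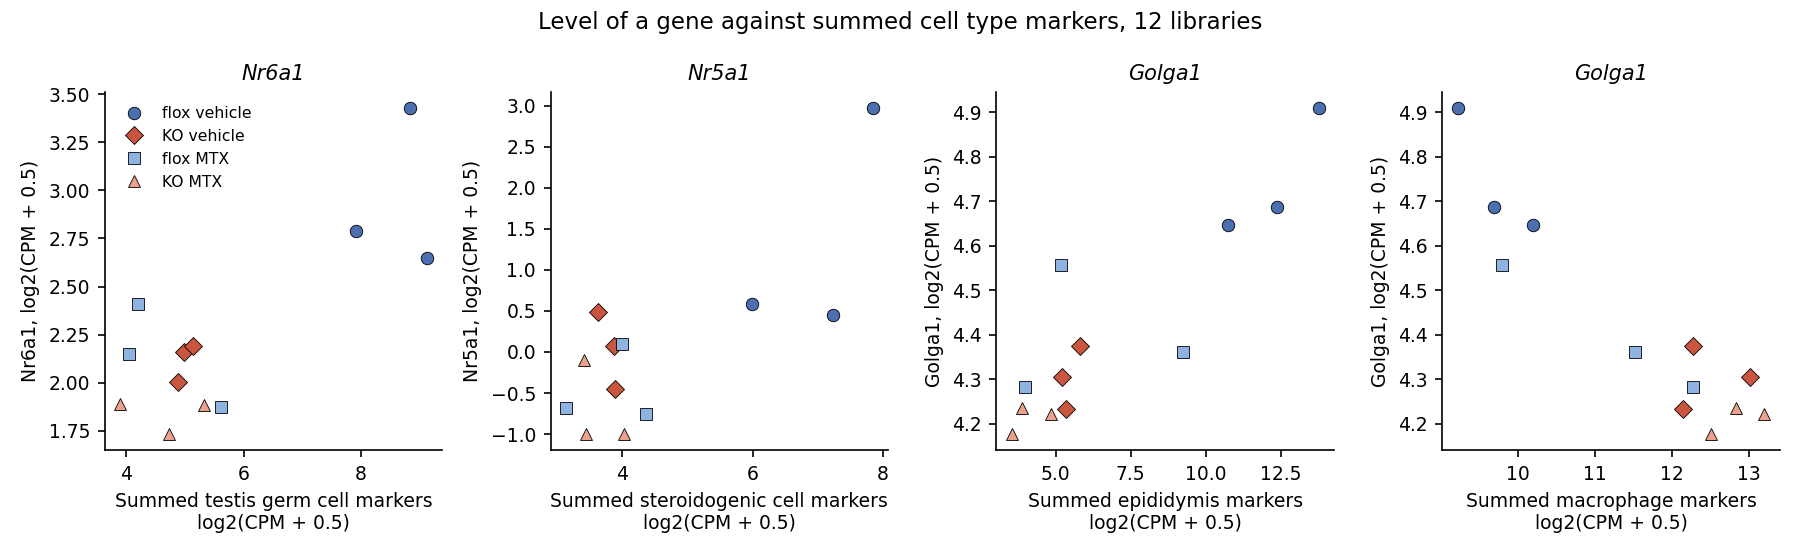
Level of a gene (vertical axis) against the summed markers of a cell type (horizontal axis), both as log2(CPM + 0.5), with 1 point per library and groups by colour and shape. For Nr6a1 with testis germ cell markers and Nr5a1 with steroidogenic cell markers, the 3 flox vehicle libraries stood furthest to the right, and Golga1 rose with epididymis markers (r = 0.888) and ran opposite to macrophage markers (r = -0.931).

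Nr6a1os and 5730507A11Rik, the transcripts nearest to the precursors, passed the test in no comparison, at a depth that allows little precision. Nr6a1os (antisense, 38823257 to 38852370) ends 365 bases before Mir181a-2 on the same strand in GENCODE, whereas the RefSeq model (38815972 to 38921863) runs across both precursors. It had 13, 8 and 6 counts in flox vehicle mice, 6, 11 and 11 in KO vehicle mice, 5, 15 and 1 in flox MTX mice and 10, 11 and 7 in KO MTX mice. Flox and KO libraries overlapped throughout. The KO difference was 0.15 ± 0.61 on the log2 scale under vehicle and 0.26 ± 0.63 under MTX (edgeR adjusted p = 0.875 and 0.829).

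5730507A11Rik (38862163 to 38865533), an unclassified transcript that starts 8245 bases beyond Mir181b-2, had 11, 28 and 9 counts in flox vehicle mice and 14, 15 and 16 in KO vehicle mice. It had 5, 19 and 6 counts in flox MTX mice and 13, 12 and 10 in KO MTX mice. The flox libraries were the more scattered and enclosed the KO libraries in both conditions. The KO difference was 0.06 ± 0.50 under vehicle and 0.03 ± 0.53 under MTX (edgeR adjusted p = 0.946 and 0.980). The strand setting of the counts is not stated, so reads of these transcripts and unspliced reads of Nr6a1, which crosses both on the other strand, cannot be told apart.

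Nr5a1 (38692656 to 38714542, minus strand), which lies 138 kb from the precursors, was set by a single library. It had 23, 22 and 159 counts in flox vehicle replicates 1, 3 and 4 (0.997, 0.864 and 7.33 CPM) and 18, 13 and 5 in KO vehicle mice (0.906, 0.550 and 0.234 CPM). After MTX it had 12, 2 and 2 counts in flox mice (0.566, 0.0908 and 0.125 CPM) and 0, 0 and 10 in KO mice (0, 0 and 0.437 CPM). Flox vehicle replicate 4 was far above every other library. The KO difference under vehicle was -2.43 ± 1.12 on the log2 scale (edgeR adjusted p = 0.126) and -0.72 without that library (edgeR adjusted p = 0.646). Under MTX it was -0.85 ± 1.41 (edgeR adjusted p = 0.741). In flox mice Nr5a1 was lower by 3.50 ± 1.22 with MTX than with vehicle (edgeR adjusted p = 0.0667). Without flox vehicle replicate 4 the value was -1.78 (edgeR adjusted p = 0.259). Leaving out flox MTX replicate 2 or 4 also took this call away (edgeR adjusted p = 0.139 and 0.146). In KO mice the MTX difference was -1.91 ± 1.32 (edgeR adjusted p = 0.773).

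Of the listed genes that Nr5a1 is known to activate, some were high in the same library and others were not. Cyp11a1, which makes pregnenolone from cholesterol, stood at 27.7 CPM in flox vehicle replicate 4 and at or below 1.52 CPM in the 11 others. Hsd3b1, the next enzyme of the pathway, stood at 22.3 CPM there and at or below 0.260 CPM elsewhere. Cyp17a1, needed for androgen synthesis, was high in all 3 flox vehicle libraries (51.1, 130 and 36.8 CPM) with replicate 4 the lowest of them, and reached 7.46 CPM in flox MTX replicate 1. Star, which carries cholesterol into the mitochondrion and was named after its values were seen, stood at 7.70 CPM in flox vehicle replicate 4, within the 5.71 to 17.1 CPM of the 11 others. The part of steroidogenic cells in the Nr5a1 difference was not tested. Of 15 listed receptors and targets of the NR5 and NR6 class, 9 passed the filter on low counts. Under vehicle 4 of these 9 were called lower in KO mice and 0 higher, beside 17.8% of all genes called lower and 13.9% called higher. The 4 were Nr6a1, Cyp17a1 (-8.17), Amhr2 (-2.23) and Cyp11a1 (-3.51 on the log2 scale). Nr5a2, the nearest paralogue of Nr5a1, differed by 0.38 (edgeR adjusted p = 0.574).

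Rpl35, Arpc5l and Golga1 lie next to each other, between 39001580 and 39065541, and their differences had different signs. Rpl35 (39001580 to 39005624, minus strand), a protein of the large ribosomal subunit, stood at 193, 216 and 195 CPM in flox vehicle mice and at 303, 280 and 385 CPM in KO vehicle mice. It stood at 283, 286 and 243 CPM in flox MTX mice and at 299, 298 and 257 CPM in KO MTX mice. Flox vehicle mice were the low group, and the other 3 groups overlapped each other. Under vehicle Rpl35 rose by 0.68 ± 0.16 on the log2 scale in KO mice (1.60-fold, edgeR adjusted p = 0.00848), and under MTX the difference was 0.07 ± 0.15 (edgeR adjusted p = 0.800). Averaged over both conditions it was 0.38 ± 0.11 (edgeR adjusted p = 0.0237), below the fold limit. Without KO vehicle replicate 3 the first value was 0.54, below the fold limit of the call (edgeR adjusted p = 0.0389). After MTX Rpl35 was 0.43 ± 0.16 higher in flox mice (edgeR adjusted p = 0.0765), a difference below the fold limit. The 2 KO differences were not shown to differ, with an interaction of -0.60 ± 0.22 (edgeR adjusted p = 0.239), although DESeq2 called it (-0.59, DESeq2 adjusted p = 0.0962).

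Most other ribosomal proteins had differences of the same sign as Rpl35. Of 45 proteins of the large subunit, 42 had a higher value in KO vehicle than in flox vehicle mice, with a median log2 fold change of 0.39 against -0.06 over all genes tested. Of the 45, 4 were called higher and 0 lower, beside 13.9% and 17.8% of all genes. The 4 were Rpl35, Rpl35a (0.66), Rpl31 (0.70) and Rpl12 (0.65 on the log2 scale). Reads of Rpl35 may be mixed with those of other genes: 66.2% of its annotated exon bases (821 bases) are shared with Wdr38 or Arpc5l on the opposite strand. Arpc5l shares only 62 exon bases in all, so most of the overlap is with Wdr38. Wdr38 stood at 0.349 to 2.12 CPM over the 12 libraries.

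Arpc5l (39005348 to 39015877, plus strand), an isoform of the Arpc5 subunit of the Arp2/3 complex that nucleates branched actin, had lower values in KO mice in both conditions. It stood at 60.3, 75.2 and 55.3 CPM in flox vehicle mice and at 55.3, 48.4 and 48.5 CPM in KO vehicle mice. After MTX it stood at 58.5, 60.7 and 70.0 CPM in flox mice and at 54.4, 52.3 and 55.3 CPM in KO mice. The flox and KO libraries did not overlap in either condition, although flox vehicle replicate 4 and KO vehicle replicate 1 nearly touched. The KO difference of Arpc5l was -0.33 ± 0.13 on the log2 scale under vehicle (edgeR adjusted p = 0.0879) and -0.27 ± 0.09 averaged over both conditions (0.827-fold, edgeR adjusted p = 0.0453, exact permutation p = 0.005). Both differences are below the fold limit. Under MTX alone the difference was -0.22 ± 0.13 (edgeR adjusted p = 0.320), and without flox vehicle replicate 3 the difference under vehicle was -0.19 (edgeR adjusted p = 0.300).

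Golga1 (39016155 to 39065541, minus strand), a golgin of the trans-Golgi network, also had lower values in KO mice in both conditions, and in flox mice after MTX. It stood at 25.3, 29.5 and 24.5 CPM in flox vehicle mice and at 18.3, 20.3 and 19.3 CPM in KO vehicle mice. After MTX it stood at 20.1, 19.0 and 23.0 CPM in flox mice and at 18.3, 18.2 and 17.6 CPM in KO mice. KO libraries lay below flox libraries in both conditions. The KO difference of Golga1 was -0.46 ± 0.13 on the log2 scale under vehicle (edgeR adjusted p = 0.0211) and -0.33 ± 0.09 averaged over both conditions (0.798-fold, edgeR adjusted p = 0.0191), again below the fold limit. The exact permutation p of the average was 0.005, the smallest that the 400 arrangements give. Under MTX alone the difference was -0.20 ± 0.13 (edgeR adjusted p = 0.359). In flox mice the MTX difference was -0.36 ± 0.13 (edgeR adjusted p = 0.0735), also below the fold limit, and -0.27 without flox vehicle replicate 3 (edgeR adjusted p = 0.240).

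Golga1 and Arpc5l were the only 2 of the 10 genes with KO below flox without overlap in both conditions, a pattern that 5.61% of all genes tested had. Golga1 was also the neighbour most like Nr6a1 (r = 0.884 over 12 libraries, place 405 of 18701), ahead of Arpc5l (0.605), Nr5a1 (0.589) and 5730507A11Rik (0.472). Nr6a1os, Psmb7 and Olfml2a had r between -0.0088 and 0.0202, Rpl35 -0.685 and Nek6 -0.757. With macrophage markers, which were lowest in the flox vehicle libraries and in flox MTX replicate 4 (886 CPM), Golga1 had r = -0.931 and Arpc5l r = -0.783. Rpl35 and Nek6, the genes called higher in KO vehicle mice, had r = 0.843 and 0.730 with them. Other marker lists ran with these genes as well. With endothelial markers Rpl35 and Nek6 had r = 0.509 and 0.739. They had r = -0.770 and -0.515 with testis germ cell, -0.727 and -0.540 with steroidogenic, and -0.716 and -0.555 with epididymis markers. Golga1 and Arpc5l had r = 0.888 and 0.489 with epididymis markers. The part of macrophages or of the other cell types in any of these differences was not tested.

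Nek6 (38511643 to 38594606, plus strand), a kinase of the mitotic spindle, was higher in KO vehicle than in flox vehicle mice. It stood at 68.8, 63.6 and 106 CPM in flox vehicle mice and at 134, 111 and 145 CPM in KO vehicle mice. After MTX it stood at 148, 88.1 and 81.3 CPM in flox mice and at 136, 98.1 and 129 CPM in KO mice. The vehicle groups did not overlap, although flox vehicle replicate 4 came near the lowest KO mouse, and flox MTX replicate 1 was the highest of all. Nek6 rose by 0.72 ± 0.26 on the log2 scale in KO mice under vehicle (1.64-fold, edgeR adjusted p = 0.0611). This call was lost without flox vehicle replicate 1 or 3 or KO vehicle replicate 1 or 3 (0.58 to 0.72, edgeR adjusted p = 0.115 to 0.181). Under MTX the difference was 0.20 ± 0.26 (edgeR adjusted p = 0.670), and averaged over both conditions it was 0.46 ± 0.18 (edgeR adjusted p = 0.0792), below the fold limit. In flox mice the MTX difference was 0.41 ± 0.26 (edgeR adjusted p = 0.287). It rested on single libraries, being 0.68 and called without flox vehicle replicate 4 (edgeR adjusted p = 0.0788) and 0.09 without flox MTX replicate 1 (edgeR adjusted p = 0.819).

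Psmb7 (38588036 to 38644087, minus strand), the subunit of the proteasome core with trypsin-like activity, was not called in any comparison. It stood at 97.4, 89.9 and 109 CPM in flox vehicle mice and at 84.9, 78.6 and 87.2 CPM in KO vehicle mice. After MTX it stood at 141, 69.3 and 136 CPM in flox mice and at 87.1, 68.6 and 89.5 CPM in KO mice. The vehicle groups did not overlap, whereas flox MTX replicate 2 fell among the KO MTX mice. The KO difference was -0.24 ± 0.23 under vehicle and -0.50 ± 0.23 under MTX (edgeR adjusted p = 0.463 and 0.210), and averaged it was -0.37 ± 0.16 (edgeR adjusted p = 0.104). Without flox MTX replicate 2 the difference under MTX was -0.76 and was called (edgeR adjusted p = 0.0277). Nek6 and Psmb7 overlap on opposite strands and share 405 exon bases, 3.78% of those of Nek6 and 11.8% of those of Psmb7.

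Olfml2a (38931978 to 38963753, plus strand), which encodes a secreted protein with an olfactomedin domain, passed the test in no comparison. It stood at 3.16, 2.87 and 4.15 CPM in flox vehicle mice and at 3.12, 5.37 and 3.09 CPM in KO vehicle mice. After MTX it stood at 3.02, 2.497 and 2.93 CPM in flox mice and at 3.26, 2.51 and 3.84 CPM in KO mice. In each comparison the groups overlapped. The KO difference was 0.19 ± 0.30 in both conditions (edgeR adjusted p = 0.668 under vehicle and 0.731 under MTX).

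**Figure D2:**
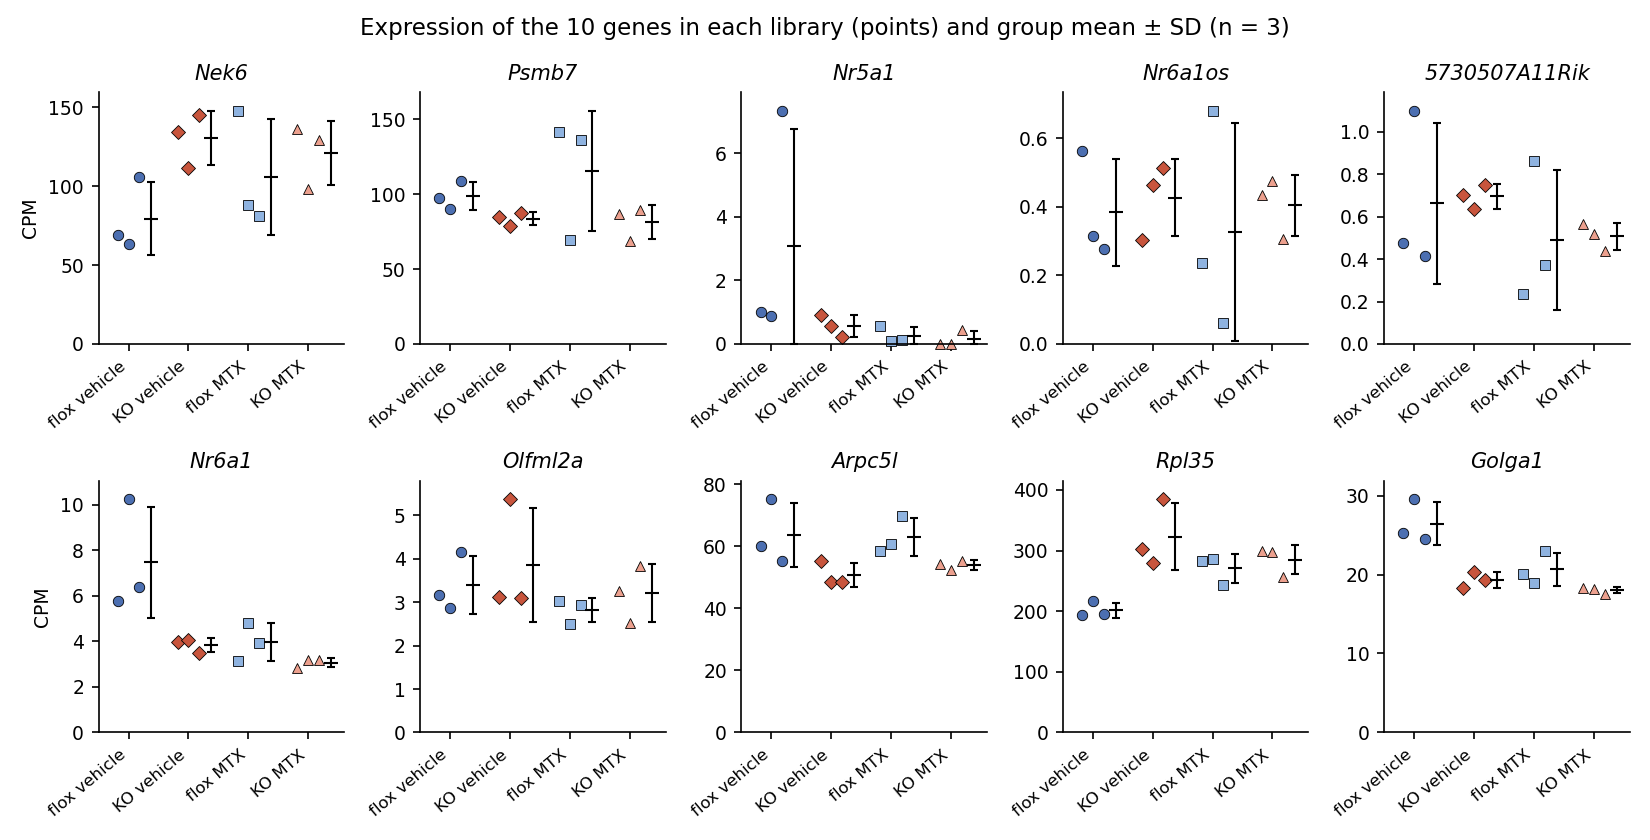
CPM (vertical axes, from 0) of the 10 genes, in order of their start sites along the chromosome, with 1 point per library in the 4 groups and the group mean ± SD (n = 3) beside the points, the lower bars ending at 0. The flox vehicle libraries are high for Nr6a1 and Golga1 and low for Rpl35, and for Nr5a1 flox vehicle replicate 4 (7.33 CPM) stands alone.

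The counts of called family members below, for KO against flox mice under vehicle, stand beside 13.9% of all genes called higher and 17.8% called lower. In the Arp2/3 complex, 7 of the 9 genes tested were called higher and 0 lower, among them Arpc5, the paralogue of Arpc5l (0.91, edgeR adjusted p = 0.00856). Arpc5l and Arpc1a (-0.30, edgeR adjusted p = 0.125) were the 2 members with a lower value. In the core particle of the proteasome, 4 of 17 genes were called higher and 0 lower, and 15 of the 17 had a higher value. Of the 4, Psmb8 (1.18), Psmb9 (0.84) and Psmb10 (1.01) are the immunoproteasome subunits, Psmb10 being the counterpart of Psmb7. The other was Psmb6, a subunit of the standard core. It stood at 113, 96.7 and 112 CPM in flox vehicle and 155, 148 and 206 CPM in KO vehicle mice. Of 10 NEK kinases tested, Nek6 was called higher and Nek4 lower (-1.05), and Nek7, the nearest paralogue, differed by -0.12 (edgeR adjusted p = 0.581). Of 7 olfactomedin genes tested, 3 were called higher and 0 lower, which were Myoc (2.21), Olfml2b (1.56), the paralogue of Olfml2a, and Olfm2 (1.23). Of the 4 GRIP domain golgins, only Golga1 had an adjusted p below 0.1, and Golga4 differed by -0.26 (edgeR adjusted p = 0.153).

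A list of 22 genes, which covers the stretch and its flanks, had 19 that were tested, 8 of them among the 10 genes above. Under vehicle 4 of the 19 were called, 2 higher and 2 lower in KO mice, beside 31.7% of all genes. Nek6, Rpl35 and Nr6a1 are among these 4. Strbp, an RNA-binding protein abundant in the testis, was the called gene that is not among the 10 (-1.72 on the log2 scale, edgeR adjusted p = 0.00284). Its level was 36.4, 55.4 and 27.4 CPM in flox vehicle mice and 10.02 to 19.9 CPM in the other 9 libraries.

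The calls among the 10 genes were then set beside those of all genes. All 10 passed the filter on low counts. Under vehicle 3 of 10 were called in KO against flox mice, Nek6 and Rpl35 higher and Nr6a1 lower, beside 31.7% of all 18702 genes tested. With no fold limit the count was 5 of 10, beside 37.9%. Their median log2 fold change was -0.09, against -0.06 for all genes. The flox and KO vehicle libraries did not overlap for 6 of the 10, beside 48.1% of all genes.

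Under MTX, edgeR called 0 of 10 in KO against flox mice, and 0% of all genes. At an unadjusted p below 0.05 these counts were 0 of 10 and 4574 of all genes, and DESeq2 called 0 of the 10 and 2734 of 16468 genes. The groups did not overlap for 2 of the 10, Golga1 and Arpc5l, beside 26.8% of all genes. Averaged over both conditions, 1 of 10 was called, Nr6a1, beside 28.5%, and 5 of 10 with no fold limit, beside 41.9%.

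MTX went with 2 of 10 called in flox mice, Nr6a1 and Nr5a1, both lower, beside 24.2% of all genes. The flox vehicle and flox MTX libraries did not overlap for 4 of the 10, beside 28.4%. In KO mice edgeR called 0 of 10 and 0% of all genes, with 0 of 10 and 1492 of all genes at an unadjusted p below 0.05 and with 0 of the 10 and 275 genes called by DESeq2. The KO vehicle and KO MTX libraries did not overlap for Nr6a1 and 5730507A11Rik, 2 of 10, beside 20.7%. As an interaction of genotype and MTX, edgeR called 0 of 10, beside 1.00% of all genes. At an unadjusted p below 0.05 the count was 1 of 10, Rpl35, beside 2810 of 18702 genes. DESeq2 also called 1 of 10, Rpl35, beside 1232 of 20491 genes. The comparisons of KO and of MTX with the flox vehicle group share those 3 libraries.

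**Figure D3:**
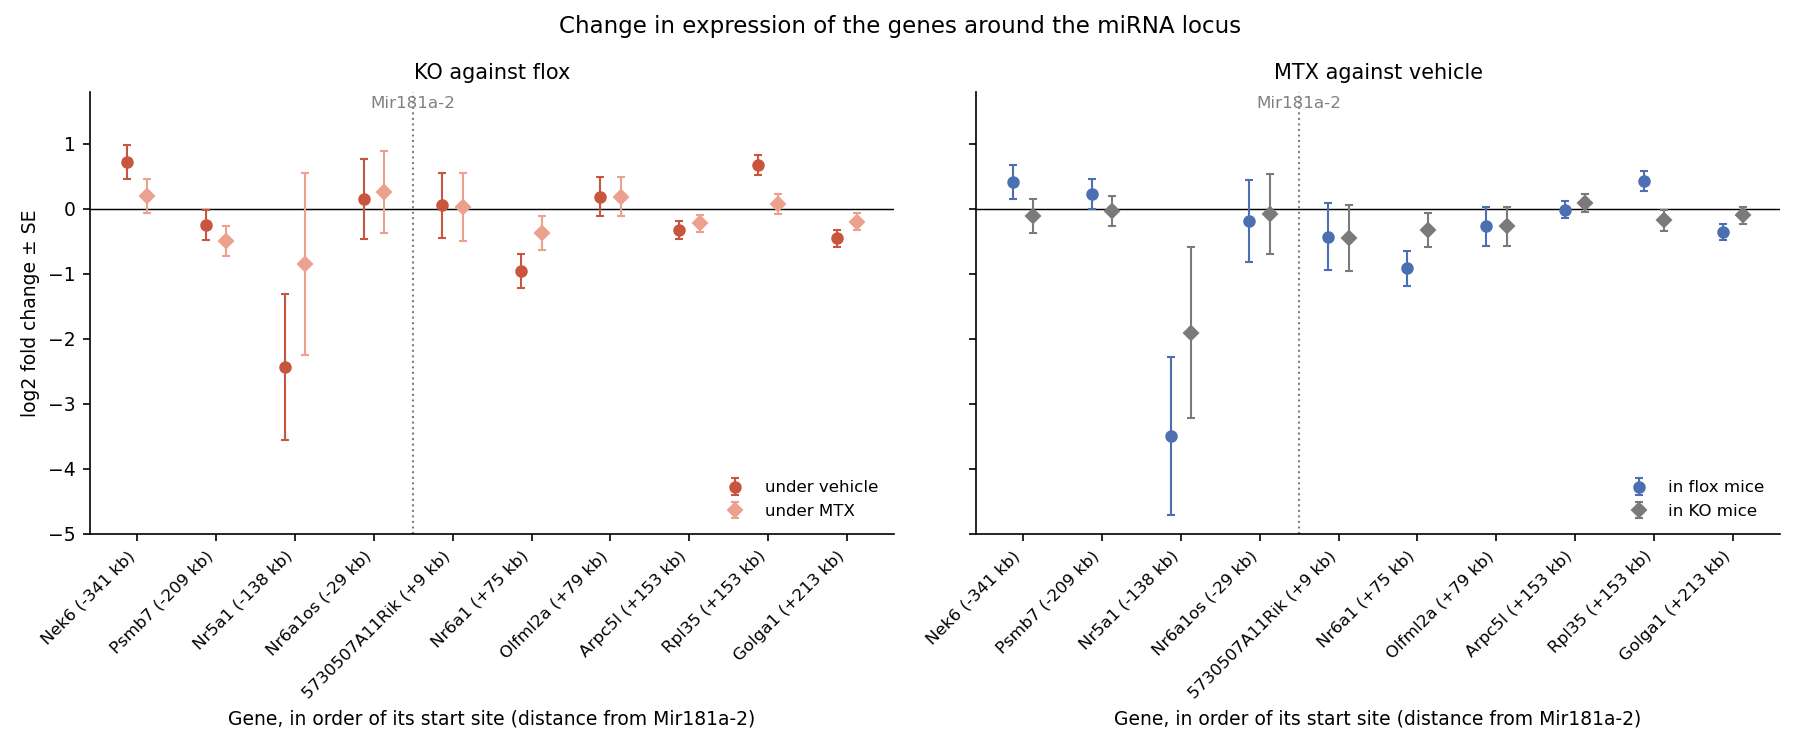
Log2 fold change ± SE from edgeR (vertical axis) of each gene, ordered along the horizontal axis by the distance of its start site from Mir181a-2 in kb, for KO against flox mice under vehicle and MTX (left) and MTX against vehicle in flox and KO mice (right). The dotted line marks Mir181a-2, whose nearest transcripts have wide errors, and the value farthest from 0 is that of Nr5a1 after MTX in flox mice (-3.50).

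By position, the host gene Nr6a1, which spans the precursors, had a KO difference under vehicle of -0.96. The nearest transcripts, Nr6a1os and 5730507A11Rik, had 0.15 ± 0.61 and 0.06 ± 0.50, errors that leave room for sizeable changes either way. Rpl35 and Nek6, whose nearest ends lie 148 and 258 kb away, had 0.68 and 0.72. Size against distance was not tested.

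Levels between genes were compared as CPM per kb of exon, with the median over the 12 libraries and the range. Rpl35 was highest at 227 CPM per kb (156 to 310), followed by Psmb7 at 25.8 (20.04 to 41.3), Arpc5l at 12.3 (10.8 to 16.7), Nek6 at 10.1 (5.93 to 13.8) and Golga1 at 3.53 (3.16 to 5.30). Arpc5l and Nek6 overlapped, and the other neighbours in this order did not. Olfml2a followed at 0.557 (0.448 to 0.963), Nr6a1os at 0.467 (0.0779 to 0.850), Nr6a1 at 0.365 (0.261 to 0.947), 5730507A11Rik at 0.161 (0.0700 to 0.326) and Nr5a1 at 0.116 (0 to 1.73). Each of these last 5 genes overlapped the next in the order. The weaker end of this order, with Nr6a1 and both transcripts nearest to the precursors, also has the fewest reads behind its values.

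**Figure D4:**
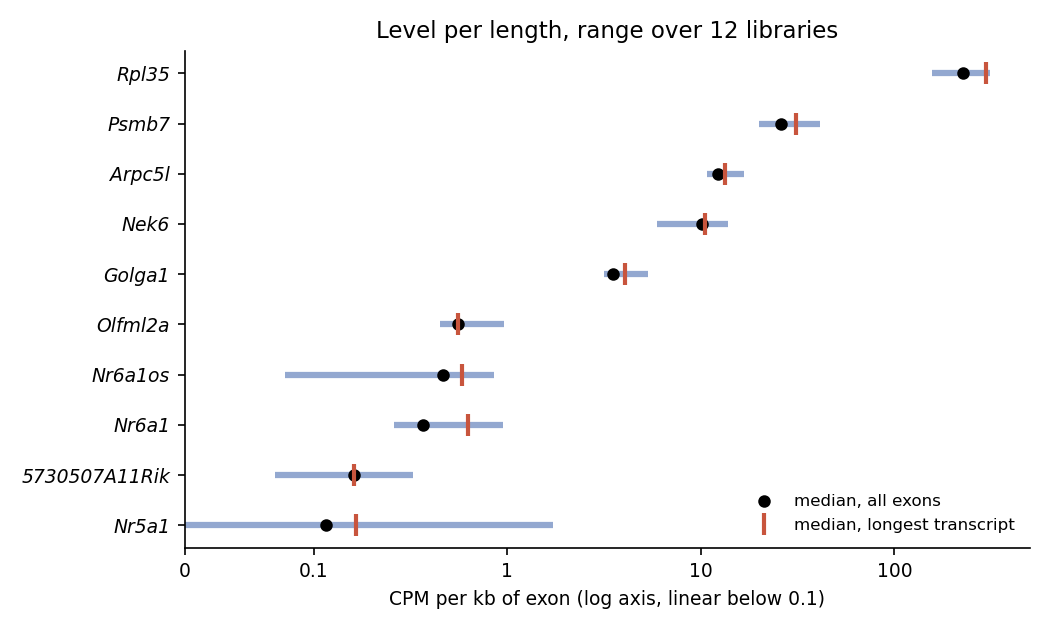
CPM per kb of exon (horizontal axis, logarithmic above 0.1 and linear below) for the 10 genes, with the range over the 12 libraries as a bar, the median with all exons as a point and the median with the longest transcript as a tick. Rpl35 lies above all other genes, and Nr6a1 moves from 0.365 to 0.624 when only its longest transcript is counted as its length.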

How the data were processed

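White adipose tissue RNA of 12 mice was measured in 4 groups of 3, mapped to libraries by the sample titles. Per the labels, the authors trimmed reads (Trimmomatic 0.36), aligned them to GRCm38 (STAR 2.5.2b) and counted them per gene (featureCounts, Subread 1.5.2), and the methods name Ensembl annotation. The deposited values are raw counts without normalization. The methods state ribodepletion and the labels polyA RNA, and neither states strand or the handling of multiply mapped reads. The whole table (49315 genes, 99.5% with a symbol, the rest holding 0.0175% of counts) was tested as a whole with edgeR 4.0.16 under R 4.3.3, using TMM, filterByExpr by group (18702 genes), 1 coefficient per group, glmQLFit, glmQLFTest and Benjamini-Hochberg adjustment over all genes tested. A call needed an adjusted p under 0.1 and at least a 1.5-fold change. CPM use TMM factors, permutation tests are exact and two-sided on the mean of log2(CPM + 0.5), and the averaged comparison permutes genotype within treatment. p-values measure the spread between mice. Alternatives included DESeq2 1.42.0 (limma 3.58.1 is loaded by edgeR). On simulated counts for KO against flox under vehicle, with 200 of 18702 genes changed 4-fold, edgeR called 151 and 15 unchanged genes, and DESeq2 167 and 71.

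Positions and UTRs are from GENCODE M21, and miRNA sequences from RefSeq. Genes named beside the 10 are those of fixed family lists called in the comparison discussed, at most 5 per list, the nearest paralogues, and the 3 most like Nr6a1. Marker lists cover macrophages, adipocytes, endothelium, epididymis, testis germ cells, steroidogenic cells, T and B cells and mesothelium. The 10 genes, the lists and the tests were chosen with earlier results of these data known. No 2 libraries of a group were duplicates.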

Additional observations from a re-analysis of the deposited data

How the results depend on the processing

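The number of the 10 genes called was recomputed under each alternative. Numbers of all genes called in the same setting are given in brackets. In KO against flox mice under vehicle it was 3 (5924 of 18702 genes). It became 5 with no fold limit (7087 of 18702 genes) and 4 in the libraries of the comparison only (adding Nr5a1, 5942 of 17934 genes). It was 2 at an adjusted p below 0.05 (without Nek6, 4844 of 18702 genes). With a log2 fold change of at least 1.5 it was 0 (3026 of 18702 genes). When a library was left out it ranged from 1 (without KO vehicle replicate 3, 4640 of 19609 genes) to 4 (without KO MTX replicate 4, 6114 of 19607 genes). Under MTX it was 0, with a range of 0 to 1, the 1 being Psmb7 without flox MTX replicate 2, where 4063 of 19532 genes were called. For MTX in flox mice it was 2 (4529 of 18702 genes). It became 1 with at least 10 counts in every library (which removes Nr5a1, Nr6a1os and 5730507A11Rik, 2158 of 14132 genes). It was 1 at an adjusted p below 0.05 (3323 of 18702 genes) and 1 with a log2 fold change of at least 1.5 (2791 of 18702 genes). It was 4 with no fold limit (5259 of 18702 genes) and 0 in the libraries of the comparison only (2167 of 17805 genes). When a library was left out it ranged from 1 to 2. For the interaction it was 0 with edgeR (187 of 18702 genes) and 1 with DESeq2 (1232 of 20491 genes). Averaged over both conditions it was 1 (5331 of 18702 genes). It became 5 with no fold limit (7828 of 18702 genes) and 0 with a log2 fold change of at least 1.5 (1802 of 18702 genes). When a library was left out it ranged from 0 to 2. It was 0 without flox vehicle replicate 3 (5121 of 19024 genes) or flox MTX replicate 2 (6223 of 19532 genes). The cause was not tested. RLE factors, library size only and no filter on low counts left each of these counts as it was. Without the 3 flox vehicle libraries, an alternative chosen after seeing the data, 0 of the 10 were called in KO against flox mice under MTX or for MTX in KO mice. Of all 17151 genes tested in that fit, 899 and 0 were called in these 2 comparisons.

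Same-numbered replicates correlated at a median r of 0.0352 over 12 pairs (-0.273 to 0.254), against 0.0112 over 42 other pairs, so the numbers were not taken to pair the mice. With the replicate block, 0 of the 10 were called for MTX in flox mice, beside 2769 of 18702 genes. The sign of the KO difference turned for Nr6a1os under vehicle (-0.30) and for 5730507A11Rik under vehicle (-0.072) and MTX (-0.11). Leaving out a library turned the sign of KO differences that had not passed. Under vehicle these ranged from -0.019 to 0.53 for Nr6a1os, -0.18 to 0.63 for 5730507A11Rik and -0.12 to 0.37 for Olfml2a. Under MTX they ranged from -0.17 to 1.34 for Nr6a1os, -0.29 to 0.74 for 5730507A11Rik and -5.57 to 0.45 for Nr5a1. Over all genes, calls ranged across settings from 3026 to 7087 (KO under vehicle), 0 to 4063 (KO under MTX), 2158 to 5996 (MTX in flox), 0 to 275 (MTX in KO), 0 to 1371 (interaction) and 1802 to 7828 (average). Depth limits Nr6a1os, 5730507A11Rik and Nr5a1, whose median counts were 9, 12 and 11.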
